A study of Mus musculus with 10 samples.

Results

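Protocadherins are cell-surface adhesion proteins of the cadherin superfamily. The members here were all probe sets that carry 1 gene symbol, where that symbol begins with Pcdh. There were 36 such probe sets, for 34 genes, of 21789 probe sets with 1 symbol. The clustered members comprised 22 probe sets, 1 for each of the genes Pcdhb1 to Pcdhb22 of the beta cluster, and the non-clustered members comprised 14 probe sets for 12 genes. The alpha cluster was represented by a probe set that carries 14 symbols at once, which the rule leaves out, and the gamma cluster was not analysed here. The comparison of clustered with non-clustered protocadherins is therefore one of the beta cluster with the 12 separate genes.

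Levels were measured in RNA from whole brains of male offspring of C57BL/6J mice, an inbred strain with no engineered allele named in the labels, at postnatal day 70. The mothers drank 10% ethanol in water, or water alone as control, from gestational day 0 until the pups were 10 days old. Experiment 1 had 2 ethanol and 2 control arrays, each with pooled RNA of 3 mice, and experiment 2 had 3 ethanol and 3 control arrays, each with pooled RNA of 2 mice. Whether litters were shared between pools is not stated, so each p-value reflects only the spread between pools within groups. For each probe set that spread was estimated over the groups of both experiments together, so pools of 3 and of 2 mice share it. In limma it was also drawn towards the spread of all probe sets. A p-value of an experiment therefore does not rest on the pools of that experiment alone. The study compared the adult brains of exposed and unexposed offspring. In whole-brain RNA, fewer cells of a type and less RNA per cell cannot be told apart.

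The alpha, beta and gamma protocadherin genes lie in tandem, and each neuron transcribes a small, partly random selection of them, chosen promoter by promoter with the help of CTCF and cohesin. The proteins bind identical proteins on other cells, and the selection gives neurites a surface identity by which they recognise and avoid branches of their own cell. Beta genes consist of a single coding exon, whereas alpha and gamma variable exons are spliced to shared constant exons. The non-clustered genes are scattered over the genome, have their own regional and cell-type patterns, and include the delta protocadherins, which act in axon growth, sorting of neurons and synapse assembly.

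None of the 36 protocadherin probe sets differed between ethanol and control arrays beyond the threshold of adjusted p 0.05, in either experiment or over both. The largest differences were in beta genes and were each seen in 1 experiment. Pcdhb2 differed by -0.33 ± 0.07 log2 units (SE) in experiment 2 and Pcdhb16 by -0.32 ± 0.08 in experiment 1, about 1.26-fold and 1.25-fold lower on the ethanol arrays. Among non-clustered genes the largest were those of Pcdh8, the activity-regulated protocadherin arcadlin, at -0.24 ± 0.10, and of Pcdh18 at 0.17 ± 0.10, both in experiment 1. Differences throughout are the ethanol mean minus the control mean, in log2 units.

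Differences were tested with limma, with p-values adjusted over all 21789 probe sets by the method of Benjamini and Hochberg. At adjusted p 0.05 limma called 0 of 36 in experiment 1, where it called 0% of all probe sets, and 0 of 36 in experiment 2, where it also called 0%. An unmoderated linear model called 0 in each experiment too. At an unadjusted limma p under 0.05 there were 3 of 36 in experiment 1 (Pcdhb16, Pcdh8 and Pcdh17), against 8.95% of all probe sets (4.02% higher and 4.93% lower on ethanol arrays), and 3 of 36 in experiment 2 (Pcdhb2, Pcdhb15 and Pcdhb20), against 9.97% (3.78% higher and 6.19% lower). The unmoderated model gave 2 and 1 at that unadjusted threshold. Over both experiments, where limma called 0% of all probe sets at adjusted p 0.05, Pcdhb2 was the 1 member under unadjusted 0.05, against 12.4% of all probe sets (4.72% higher and 7.68% lower). These shares of members lie near or below the shares of all probe sets.

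**Figure D1:**
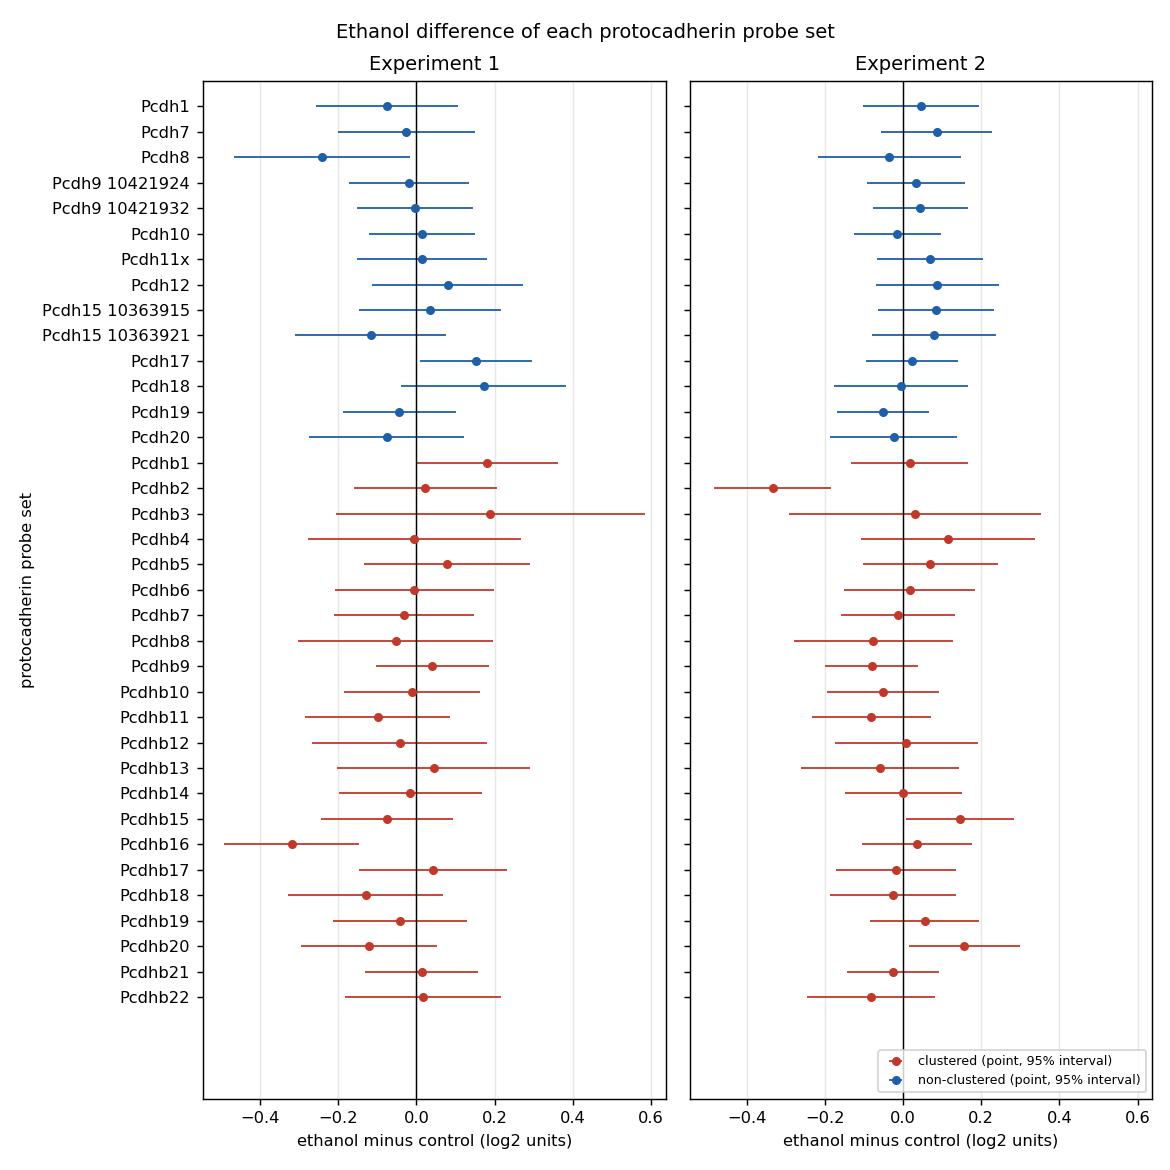
Ethanol minus control (log2 units, horizontal axis) for each of the 36 protocadherin probe sets in experiment 1 (left) and experiment 2 (right), with 95% intervals from limma that are not adjusted for the number of genes; 2 genes have 2 probe sets each, marked by probe set number. Pcdhb16 stands apart on the left and Pcdhb2 on the right, and most other intervals include 0.

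The intervals were wide within an experiment. In experiment 1 the unadjusted 95% intervals of the beta probe sets reached from -0.49 to 0.58 log2 units and those of the non-clustered ones from -0.47 to 0.38. In experiment 2 they reached from -0.48 to 0.35 and from -0.22 to 0.24. Over both experiments the unadjusted 95% intervals of the 22 beta probe sets lay between -0.34 and 0.34 log2 units, and those of the 14 non-clustered probe sets between -0.27 and 0.20. The median half-width was 0.12 for beta probe sets and 0.11 for non-clustered ones, which correspond to 1.09-fold and 1.08-fold. Over both experiments the estimated difference was smaller than 1.1-fold for 21 of the 22 beta and all 14 non-clustered probe sets. The share among all probe sets was 91.3%. The exception among the members was Pcdhb2, at -0.19 ± 0.07 (adjusted p = 0.342). A difference of a few percent in any 1 gene was not detectable with 5 arrays per treatment.

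Pcdhb2 and Pcdhb16 had the smallest p among the beta genes in experiments 2 and 1. In experiment 2, Pcdhb2 had levels of 7.28, 7.07 and 7.07 log2 units on the ethanol arrays and 7.47, 7.41 and 7.54 on the control arrays. Every ethanol array was below every control array (-0.33 ± 0.07, adjusted p = 0.242). In experiment 1 the same probe set had 7.29 and 7.34 on the ethanol arrays and 7.24 and 7.35 on the control arrays, so the groups overlapped and the difference was 0.02 ± 0.08. For Pcdhb16 the order of the experiments was the reverse. Its levels in experiment 1 were 8.36 and 8.41 on the ethanol arrays and 8.61 and 8.80 on the control arrays, without overlap (-0.32 ± 0.08, adjusted p = 0.346). In experiment 2 it had 8.53, 8.50 and 8.66 on the ethanol arrays against 8.48, 8.57 and 8.54 on the control arrays, which overlapped (0.04 ± 0.06).

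Pcdhb20 and Pcdhb15, the second named after its values were seen, had positive differences in experiment 2. The levels of Pcdhb20 there were 7.73, 7.56 and 7.67 on the ethanol arrays and 7.55, 7.43 and 7.51 on the control arrays. No ethanol array overlapped a control array (0.16 ± 0.06, adjusted p = 0.459). In experiment 1 the same gene had 7.60 and 7.43 on the ethanol arrays and 7.61 and 7.66 on the control arrays, again without overlap but with the other sign (-0.12 ± 0.08, adjusted p = 0.689). That difference was -0.03 without ethanol replicate 2 and -0.21 without ethanol replicate 1. Pcdhb15 had 8.78, 8.71 and 8.58 on the ethanol arrays of experiment 2 and 8.60, 8.50 and 8.54 on its control arrays, where 1 ethanol array lay within the control range (0.15 ± 0.06, adjusted p = 0.475). Its difference in experiment 1 was -0.07 ± 0.08.

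**Figure D2:**
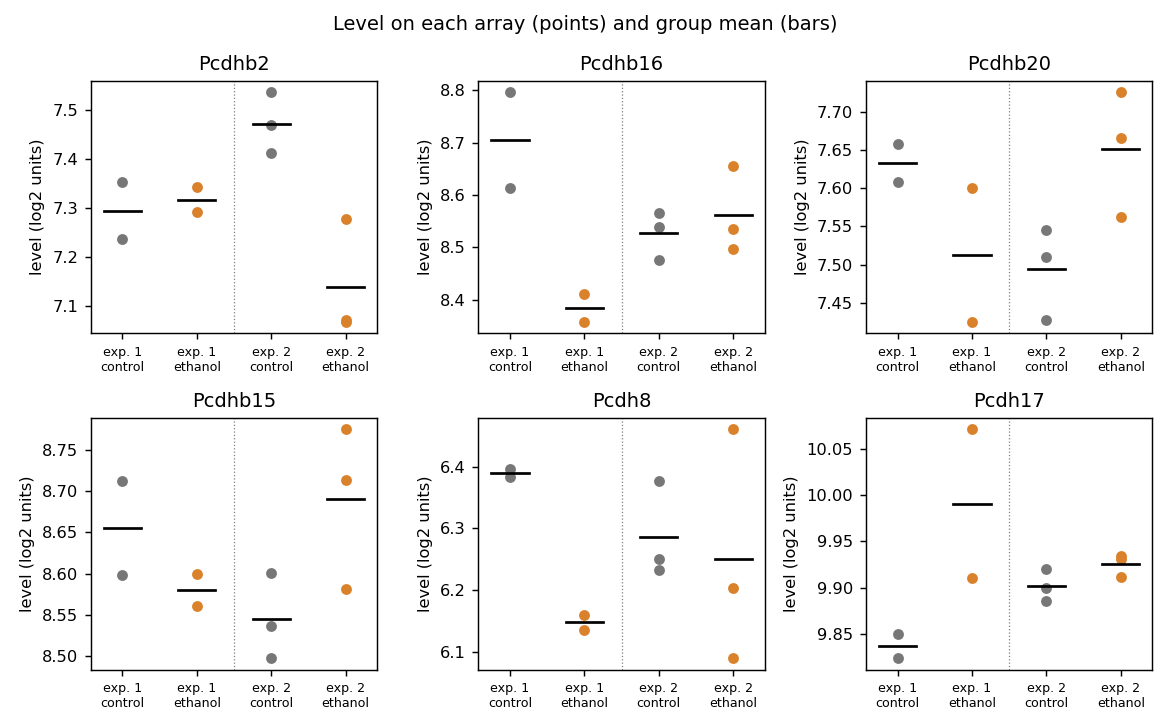
Level (log2 units, vertical axis, a separate scale for each gene that does not start at 0) on each array, as points, for the 6 protocadherins with an unadjusted limma p under 0.05 in an experiment; grey is control, orange is ethanol, bars are group means, and levels cannot be compared between the experiments. With ethanol, Pcdhb2 separates lower in experiment 2, and in experiment 1 Pcdhb16 and Pcdh8 separate lower and Pcdh17 higher. Pcdhb20 separates lower in experiment 1 and higher in experiment 2, and none separates the same way in both.

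The difference between the experiments was tested in its own right, as the ethanol difference of experiment 2 minus that of experiment 1. It was 0.36 ± 0.10 for Pcdhb16 and -0.36 ± 0.11 for Pcdhb2 (adjusted p = 0.665 for each). It was 0.28 ± 0.10 for Pcdhb20 (adjusted p = 0.701) and 0.22 ± 0.10 for Pcdhb15 (adjusted p = 0.759). These 4 were the members of 36 with an unadjusted limma p under 0.05 in this test, against 6.57% of all probe sets (3.33% higher and 3.24% lower), and all 4 were beta genes. At adjusted p 0.05 limma called 0 members and 0% of all probe sets, so a difference between the experiments was not established for any of them.

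Among the other beta genes, Pcdhb1 and Pcdhb3 had the largest positive differences of experiment 1, and Pcdhb3 was named after its values were seen. Pcdhb1, the dimmest probe set of the cluster, had 5.47 and 5.66 on the ethanol arrays of experiment 1 and 5.33 and 5.44 on its control arrays, without overlap (0.18 ± 0.08, adjusted p = 0.56). Its difference in experiment 2 was 0.02 ± 0.07. Pcdhb9, the brightest, differed by 0.04 ± 0.07 in experiment 1 and -0.08 ± 0.05 in experiment 2. Pcdhb11 was among the 3 beta genes with the smallest p over both experiments. It differed by -0.10 ± 0.08 and -0.08 ± 0.07 in experiments 1 and 2 and by -0.09 ± 0.05 over both (adjusted p = 0.492). Pcdhb3 had 7.80 and 7.84 on the ethanol arrays of experiment 1 and 7.59 and 7.68 on its control arrays, also without overlap (0.19 ± 0.18, adjusted p = 0.79). It had the widest spread between pools, with a pooled within-group SD of 0.24 log2 units against a median of 0.09 for the beta genes. Its 3 control arrays of experiment 2 had 7.98, 7.29 and 7.88. The differences of the 22 beta genes ran from -0.32 to 0.19 in experiment 1 and from -0.33 to 0.16 in experiment 2.

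The delta-2 protocadherins Pcdh8, Pcdh10, Pcdh17, Pcdh18 and Pcdh19 act in synapse remodelling, axon growth and neuronal sorting. Pcdh8, which binds N-cadherin at synapses and draws it from the membrane, and Pcdh17, which marks corticobasal circuits, were the non-clustered genes with the smallest p in experiment 1. Pcdh10, which guides axons through the recruitment of actin regulators, had the smallest spread between pools of any member. RefSeq promoter windows of GRCm38.p6, 250 bases before to 50 after the gene start, are shown for these 3, the pair with the smallest p and the gene with the smallest spread. Capitals mark TGACG, the CREB half-site, TATAAA, the TATA box, and CCGCCC, the GC box, searched on both strands.
Pcdh8, chr14:79771263-79771562, minus strand: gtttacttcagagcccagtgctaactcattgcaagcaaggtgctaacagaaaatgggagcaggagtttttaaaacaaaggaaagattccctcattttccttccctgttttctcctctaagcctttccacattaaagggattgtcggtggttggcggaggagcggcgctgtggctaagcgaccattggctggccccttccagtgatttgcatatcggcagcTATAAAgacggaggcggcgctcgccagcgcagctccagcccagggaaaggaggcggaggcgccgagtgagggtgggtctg
Pcdh17, chr14:84443313-84443612, plus strand: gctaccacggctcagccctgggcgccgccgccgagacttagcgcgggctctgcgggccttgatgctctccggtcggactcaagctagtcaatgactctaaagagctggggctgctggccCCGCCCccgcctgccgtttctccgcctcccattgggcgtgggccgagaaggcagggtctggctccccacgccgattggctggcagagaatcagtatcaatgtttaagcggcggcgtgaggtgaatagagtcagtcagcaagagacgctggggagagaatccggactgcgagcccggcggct
Pcdh10, chr3:45378148-45378447, plus strand: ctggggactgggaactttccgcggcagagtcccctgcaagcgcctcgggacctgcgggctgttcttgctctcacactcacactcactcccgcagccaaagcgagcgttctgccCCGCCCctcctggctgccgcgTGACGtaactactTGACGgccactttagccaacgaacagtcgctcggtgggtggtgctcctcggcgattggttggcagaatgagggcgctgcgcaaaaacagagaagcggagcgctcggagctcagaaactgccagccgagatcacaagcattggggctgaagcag
The Pcdh8 window held a TATA box whose first base lay 30 bases before the start, and no CREB half-site or GC box. The Pcdh17 window held a GC box, and the Pcdh10 window held a GC box and 2 CREB half-sites. These matches do not overlap one another. Of all 32851 promoter windows of this length, 20.8% held TGACG, 13.6% TATAAA and 35.7% CCGCCC at least once on either strand. A match somewhere in a window is therefore common. These shares do not measure how common a match at a given position, or more than 1 in a window, is. A match is a description and not a site of binding. Windows were found for 9 of the 34 member genes.

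Pcdh8 had 6.14 and 6.16 log2 units on the ethanol arrays of experiment 1 and 6.40 and 6.38 on the control arrays. Both ethanol arrays lay below both control arrays (-0.24 ± 0.10, adjusted p = 0.53). In experiment 2 its ethanol arrays had 6.46, 6.09 and 6.20 and its control arrays 6.38, 6.23 and 6.25, so that the ethanol arrays spanned the controls (-0.04 ± 0.08). Without ethanol replicate 1 of experiment 2 that difference was -0.14, and without ethanol replicate 2 it was 0.05. Pcdh17 had 10.07 and 9.91 on the ethanol arrays of experiment 1 and 9.82 and 9.85 on the control arrays, without overlap (0.15 ± 0.07, adjusted p = 0.535). In experiment 2 the ethanol arrays had 9.91, 9.93 and 9.93 and the control arrays 9.90, 9.92 and 9.89, and the difference was 0.02 ± 0.05. The difference of Pcdh17 in experiment 1 was 0.07 without ethanol replicate 1.

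Pcdh18, which interacts with the adaptor protein Dab1, had 7.81 and 7.75 in experiment 1 with ethanol and 7.68 and 7.55 in its controls. These groups did not overlap, yet the difference of 0.17 ± 0.10 had an adjusted p of 0.635. It was -0.01 ± 0.08 in experiment 2. Pcdh10 differed by 0.01 ± 0.06 and -0.01 ± 0.05 in experiments 1 and 2, with levels between 10.57 and 10.67 on all 10 arrays. Pcdh19, the X-linked gene mutated in a clustering epilepsy of girls, differed by -0.04 ± 0.07 and -0.05 ± 0.05, with overlapping groups in each experiment.

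The delta-1 protocadherins Pcdh1, Pcdh7, Pcdh9 and Pcdh11x have longer extracellular parts than the delta-2 proteins. Pcdh9 had 2 probe sets, which gave -0.02 ± 0.07 and 0.00 ± 0.07 in experiment 1 and 0.03 ± 0.06 and 0.04 ± 0.06 in experiment 2. These 2 probe sets moved together over the 10 arrays, with a correlation of 0.94 between their deviations from the group means. Pcdh7 differed by -0.03 ± 0.08 in experiment 1 and 0.09 ± 0.07 in experiment 2. Pcdh11x had 10.11, 10.13 and 10.11 on the ethanol arrays of experiment 2 and 10.05, 10.08 and 10.01 on the control arrays. It was the 1 non-clustered member whose arrays did not overlap in that experiment, and its difference there was 0.07 ± 0.06 (adjusted p = 0.73). Pcdh1 differed by -0.07 ± 0.08 in experiment 1, where its ethanol arrays lay below its controls, and by 0.05 ± 0.07 in experiment 2.

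The remaining 3 genes fall outside the delta groups or are loosely placed. Pcdh12, an endothelial protocadherin, differed by 0.08 ± 0.09 and 0.09 ± 0.07 in experiments 1 and 2. Pcdh15, a component of the tip links of inner-ear hair cells, had 2 probe sets that disagreed in experiment 1. Probe set 10363915 gave 0.03 ± 0.08 there and probe set 10363921 gave -0.12 ± 0.09, and for each the ethanol arrays did not overlap the control arrays. In experiment 2 they gave 0.09 ± 0.07 and 0.08 ± 0.07, and over both experiments 0.06 ± 0.05 and 0.00 ± 0.06. Unlike those of Pcdh9, the Pcdh15 probe sets did not move together, with a correlation of -0.14 between their deviations from the group means. Pcdh20 differed by -0.08 ± 0.09 and -0.02 ± 0.07.

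**Figure D3:**
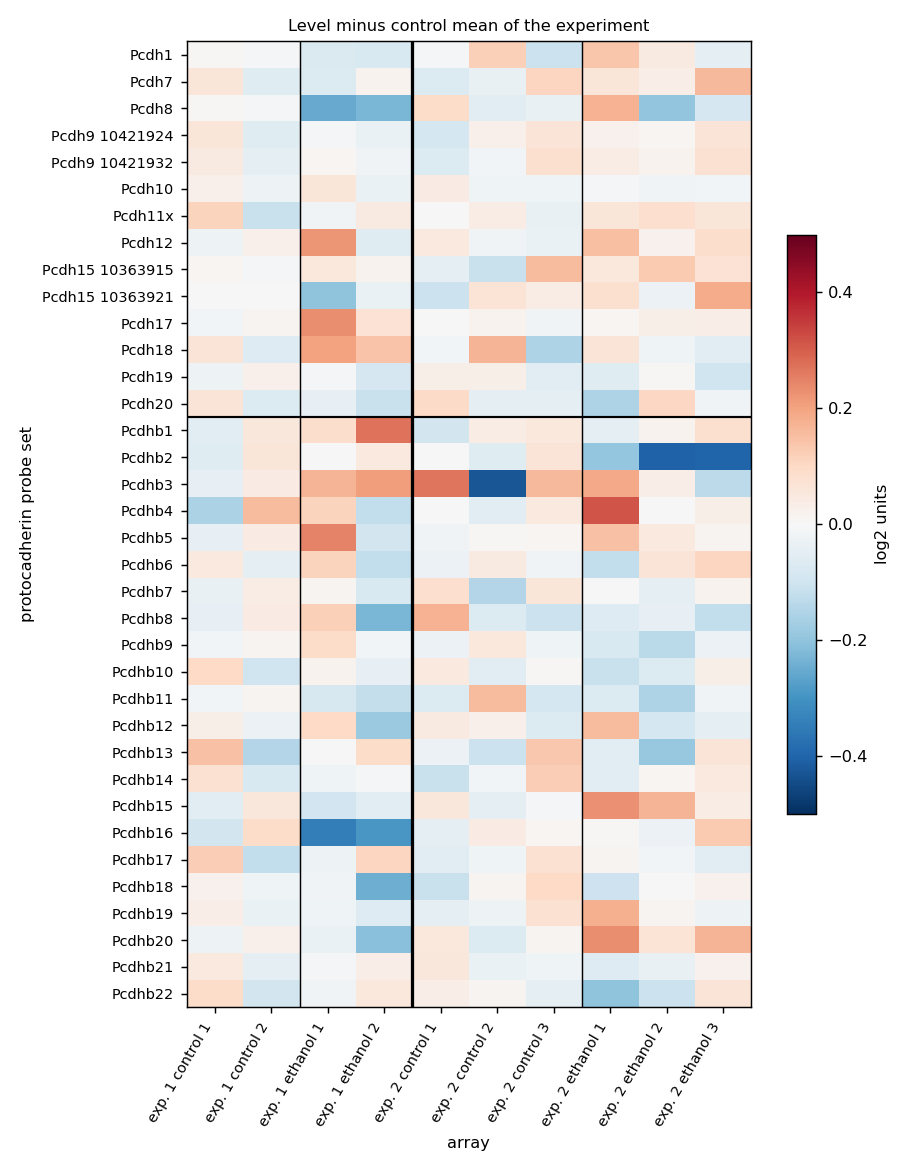
Level on each of the 10 arrays (columns) minus the control mean of the same experiment, in log2 units (colour, from -0.5 to 0.5), for the 36 protocadherin probe sets (rows); thin vertical lines part control from ethanol arrays, the thick line parts the experiments, and the horizontal line parts non-clustered genes from beta genes. Pcdhb2 is dark on ethanol arrays 2 and 3 of experiment 2, Pcdhb16 and Pcdh8 on the ethanol arrays of experiment 1, and Pcdhb3 on control array 2 of experiment 2.

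Set side by side, the beta genes and the non-clustered genes had close medians in experiment 1. The median difference was -0.01 log2 units for each set there, with 9 of 22 beta and 6 of 14 non-clustered probe sets at positive values, beside 48.2% of all probe sets. In experiment 2 it was -0.01 for the beta genes, with 11 of 22 at positive values, and 0.04 for the non-clustered genes, with 9 of 14, beside a median of -0.01 and 45.1% for all probe sets. These counts moved with the scaling: with arrays centred on the median of probe sets with 1 symbol, 15 of 22 beta and 12 of 14 non-clustered values were positive in experiment 2, and with arrays centred on the median of all probe sets, 5 of 22 and 7 of 14. The non-clustered median was then 0.07 and 0.00 (-0.0015). No member was apart from its controls in the same direction in both experiments, whereas 4.29% of all probe sets were. In experiment 1, ethanol and control arrays did not overlap for 5 beta and 6 non-clustered probe sets, against 34.3% of all probe sets (15.1% higher and 19.2% lower). In experiment 2 they did not overlap for 4 beta and 1 non-clustered probe sets, against 19.2% (7.62% higher and 11.6% lower). The sign of the difference was the same in both experiments for 8 of 22 beta and 7 of 14 non-clustered probe sets, and for 57.5% of all probe sets. The experiments share no arrays.

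**Figure D4:**
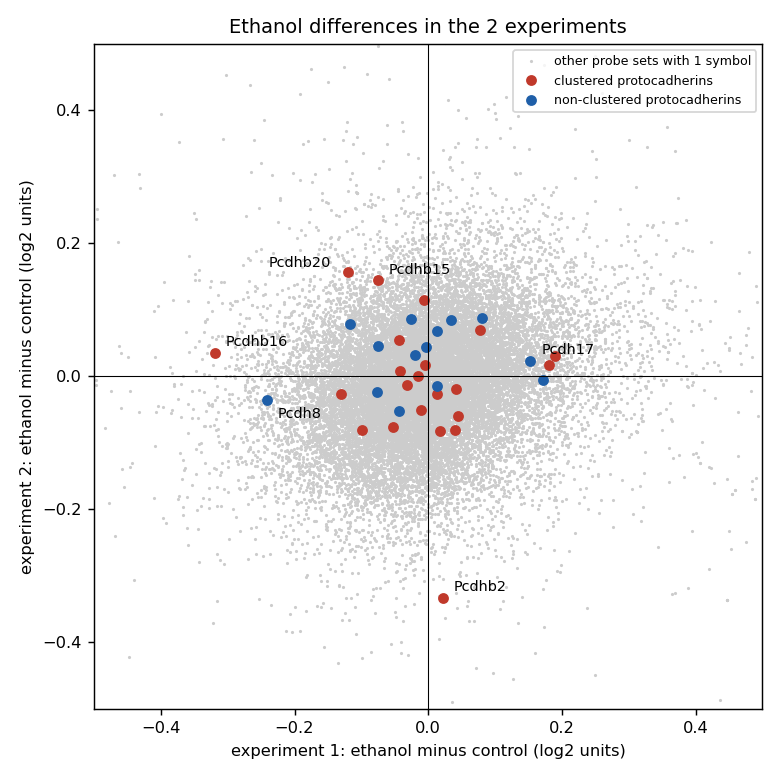
Ethanol minus control in experiment 1 (horizontal axis) against experiment 2 (vertical axis), in log2 units, for beta (red) and non-clustered (blue) protocadherins over all other probe sets with 1 symbol (grey); 62 probe sets lie outside the axes. The red and blue points are spread around 0 within the grey cloud, with Pcdhb2 and Pcdhb16 at its margin in 1 experiment each.

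The median of a set on single arrays differed little from the control mean of its experiment. For the beta genes it was 0.00 and -0.06 on ethanol replicates 1 and 2 of experiment 1 and -0.05, -0.02 and 0.02 on the 3 ethanol arrays of experiment 2. For the non-clustered genes it was -0.01 and -0.03 in experiment 1 and 0.06, 0.02 and 0.05 in experiment 2. On the control arrays it ranged from -0.02 to 0.01 for the beta genes and from -0.03 to 0.02 for the non-clustered genes. Control arrays are measured here from their own mean, which narrows their range, so it is no yardstick for the ethanol arrays. The spread between pools was alike in the 2 sets, with a median pooled SD of 0.09 log2 units for the beta genes and 0.08 for the non-clustered genes, beside 0.08 for all probe sets.

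Variation between pools was compared for beta genes that lie next to each other and those that do not. The deviations from the group means over 10 arrays had a median correlation of 0.10 for the 21 pairs of neighbours and 0.03 for the 210 other pairs of beta genes. It was 0.04 for pairs of 1 beta and 1 non-clustered gene and -0.04 for pairs of non-clustered genes. All these points share the same 10 arrays, single pairs ranged from -0.93 to 0.93, and beta genes are similar enough in sequence that a probe set can share signal with a paralog.

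The sign of a difference varied with signal level over all genes, and the members were read beside that. All probe sets were ranked by mean level into 4 bands of like size. In band 3, the second brightest, 29.3% had positive differences in experiment 1 and 29.0% in experiment 2, with medians of -0.05 in each. The 14 beta genes in that band had 4 and 7 positive values and medians of -0.03 and -0.01. The 4 non-clustered probe sets in band 3 had 1 positive value in each experiment and medians of -0.06 and -0.01. Of all probe sets in the brightest band, 32.8% and 26.8% had positive differences. The 6 non-clustered probe sets there, which include both probe sets of Pcdh9, had 3 and 5. In the 2 dimmer bands most probe sets had positive differences, 73.0% and 69.5% in the dimmest and 57.8% and 55.1% in band 2. Pcdhb1 and Pcdh12, the members in the dimmest band, had positive values in both experiments. In band 2 the 7 beta genes had 4 and 3 positive values, and the 3 non-clustered probe sets had 1 and 2. Brightness depends on the probes, so it gives no order of transcript amounts between genes.

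**Figure D5:**
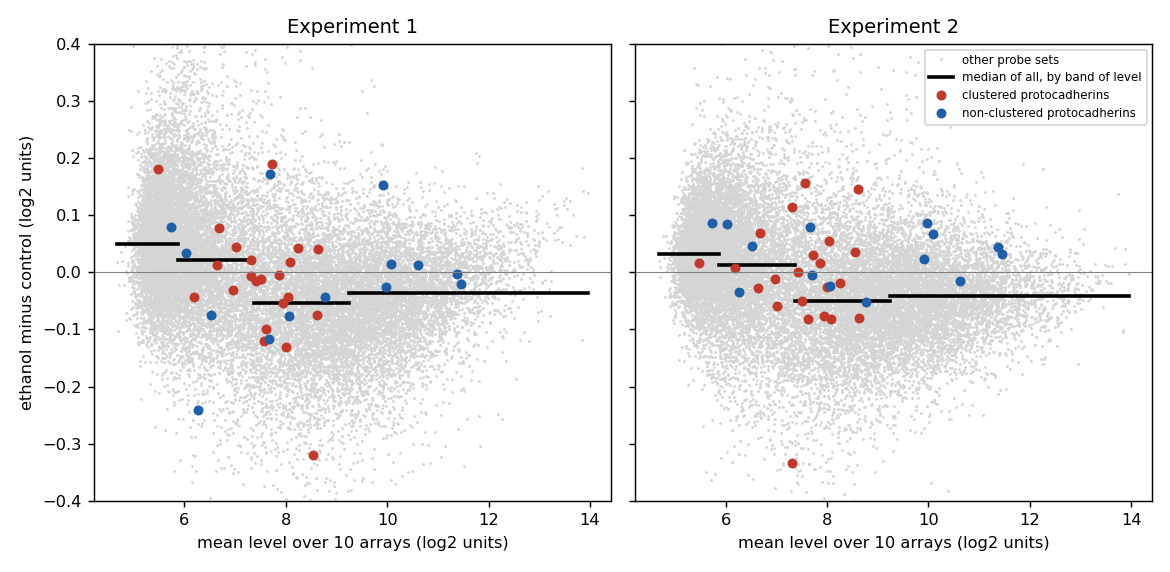
Ethanol minus control (log2 units, vertical axis) against mean level over 10 arrays (log2 units, horizontal axis) in experiment 1 (left) and experiment 2 (right), for beta (red) and non-clustered (blue) protocadherins and all other probe sets with 1 symbol (grey); black bars are the medians of all probe sets in each of 4 bands of level, and 125 and 70 probe sets lie outside the axes. The black bars fall from above 0 for dim to below 0 for bright probe sets, and the members scatter on both sides of them.

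Genes that act with protocadherins were read from 5 lists. Of 14 probe sets for CTCF and cohesin, which loop protocadherin promoters to their enhancers, all 14 had negative differences in experiment 1, with a median of -0.13, and 7 of 14 in experiment 2, with a median of 0.00. At an unadjusted p under 0.05 there were 6 of 14 in experiment 1 and 2 of 14 in experiment 2, beside 4.93% and 6.19% of all probe sets in that direction, and 0 passed adjusted p 0.05. All 14 lay above the median level, where most probe sets had negative differences. In experiment 1, 530 of 5447 probe sets in band 3 and 388 of 5448 in the brightest band were lower at the unadjusted threshold. In experiment 2 these counts were 630 and 389. Over both experiments Wapl, which releases cohesin from DNA, differed by -0.16 ± 0.05 (adjusted p = 0.306) and Stag2, a cohesin subunit, by -0.17 ± 0.06 (adjusted p = 0.326). Ctcf itself, named after its values were seen, differed by -0.08 in experiment 1 and 0.08 in experiment 2.

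The other 4 lists were read over both experiments, where 45.6% of all probe sets had positive differences, with 22.7% in level band 3 and 22.5% in the brightest band. The list on chromatin silencing also holds the Tet1, Tet2 and Tet3 enzymes, which start DNA demethylation. It had 4 positive values among 19 probe sets, with a median of -0.05, and 16 of the 19 lay in the brighter 2 bands. The Tet genes gave 6 of the 19 probe sets and 5 of the 15 negative values. A Tet3 probe set had the largest positive value of the list, 0.08 ± 0.07. The methyltransferase genes went both ways, and they, Tet3 and Uhrf1 were named after their values were seen. Dnmt3a (0.01 ± 0.06) and Ehmt2 (0.06 ± 0.05) had positive values. Dnmt1 (-0.05 ± 0.04), Dnmt3b (-0.02 ± 0.06), Ehmt1 (-0.11 ± 0.07) and Setdb1 (-0.06 ± 0.04) had negative ones. The methylation reader Uhrf1 differed by 0.06 ± 0.07. Smchd1, a chromosomal protein that represses clustered protocadherin genes, differed by -0.16 ± 0.05 (adjusted p = 0.306) at 1 probe set and by -0.09 ± 0.04 (adjusted p = 0.429) at its other. Trim28, a corepressor, differed by -0.10 ± 0.04 (adjusted p = 0.38).

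Signalling partners, among them the kinases and actin regulators that protocadherin tails bind, had 3 positive values among 20 probe sets, all 20 in the brighter 2 bands. The receptor kinase Ret differed by -0.18 ± 0.07 and the kinase Fyn by -0.10 ± 0.04. The list of proteases that cut protocadherins had 0 positive values among 8 probe sets of 6 genes, all 8 in the brighter 2 bands. The gamma-secretase subunit Aph1b differed by -0.10 ± 0.05 and the metalloprotease Adam10 by -0.08 ± 0.04. Other cadherins had positive values in 30 of 53 probe sets, with a median of 0.02, and 39 of the 53 lay in the brighter 2 bands. Cdh19, a cadherin of the Schwann cell lineage, differed by -0.22 ± 0.07 (adjusted p = 0.306). The 2 probe sets of Cdh24 disagreed in sign, with 0.14 ± 0.05 (adjusted p = 0.336) at the one named by the rule and -0.05 ± 0.05 (adjusted p = 0.619) at its other. None of these genes passed adjusted p 0.05 in either experiment, in the difference between experiments or over both.

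The arrays carried the labelled tissue, with brain markers at a mean of 11.5 log2 units on each array group. Array medians over all probe sets ran from 6.99 to 7.05. In experiment 2 they ran from 7.04 to 7.05 on the ethanol arrays and from 6.99 to 7.03 on the control arrays, without overlap. In experiment 1 they were 7.02 and 7.05 on the ethanol arrays and 7.01 and 7.04 on the control arrays, which overlapped. Markers of other regions and tissues are given as values, and 0 passed adjusted p 0.05 in limma. The mean level of 8 cerebellar marker probe sets was 10.2 to 10.5 on the ethanol and 10.7 on the control arrays of experiment 1, and 10.2 to 10.5 and 10.5 to 10.6 in experiment 2, with 8 of 8 at negative differences in each. For 5 anterior pituitary probe sets, ethanol arrays lay at 7.87 to 8.95 against 5.72 to 5.90 in experiment 1 and 6.51 to 9.82 against 6.39 to 6.97 in experiment 2, with 5 of 5 positive. For 6 choroid plexus probe sets it was 8.76 to 8.79 against 8.83 to 8.85 in experiment 1 and 8.56 to 8.77 against 8.91 to 8.97 in experiment 2. Of these, 2 of 6 had positive differences in experiment 1 and 0 of 6 in experiment 2. For 6 olfactory mucosa and 3 serotonergic probe sets the median difference over both experiments was -0.05 and -0.10. The olfactory probe sets had 4 of 6 positive in experiment 1 and 1 of 6 in experiment 2. In experiment 2 their mean level ran from 7.07 to 7.23 on the ethanol arrays and from 6.96 to 7.79 on the control arrays. The serotonergic probe sets had 0 of 3 positive in each experiment. The part of these markers in the protocadherin values was not tested.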

How the data were processed

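Whole-brain RNA (200 ng per array) was labelled with biotin and hybridised to Affymetrix whole-transcript arrays (labels' protocols). The deposited values are log2 expression levels of 35556 probe sets on 10 arrays. They were made with Partek 6.6, per the submitters' processing notes. For background correction, normalization and genome build, the step is not given in the sources used here. For every probe set the means of the experiments agree within 5.83e-05 log2 units, so a difference between experiments had been removed and levels are not compared across them.

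Gene symbols came from GEO's platform annotation, and the 21789 probe sets with 1 symbol were tested with limma 3.58.1 in R 4.3.3 (lmFit, eBayes): 1 mean per group gave the within-experiment differences and the difference between them (6 residual degrees of freedom, prior 5.45), and terms for experiment and treatment gave the comparison over both (7, prior 5.57). Intervals are 95%. No minimum level was applied, so all 36 members entered every test. Simulated data held 21789 genes with normal noise that was independent between genes. Into these, 50 changes were planted at each of 0.25, 0.5, 1 and 2 log2 units. At adjusted p 0.05, 7 of 50 changes of 0.25 log2 units and 35 of 50 of 0.5 were recovered in experiment 1. The counts were 12 and 43 in experiment 2, and 31 and 47 over both. Nearly all changes of 1 and 2 log2 units were called, which loosens the adjusted threshold, whereas no probe set was called in the deposited data. The recovered counts can therefore overstate what these data could detect.

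The members and gene lists were chosen with earlier results of these data known. Named were all non-clustered genes, the beta genes with the 3 smallest p over both experiments, the brightest and dimmest, those with the smallest p in each experiment and direction, any past adjusted p 0.05, and 2 genes per list; others are marked as named after their values were seen. C-type clustered isoforms, also in the rule, had no probe set with 1 symbol to name. Alternatives were quantile normalization, 2 centrings, filters on dim probe sets, all probe sets, a replicate block, other variance models, array weights, separate fits, 1 probe set per gene and each array left out. Promoter windows came from RefSeq (GRCm38.p6). Figures were drawn with matplotlib 3.10.9.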

Additional observations from a re-analysis of the deposited data

How the results depend on the processing

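No alternative brought a member past adjusted p 0.05: of 3032 values of single probe sets under the alternatives, 0 passed, 215 had another sign and 53 moved by 1 SE or more. In place of adjusted p, an unadjusted p under 0.05 gave 3 members in experiment 1, 3 in experiment 2, 4 for the difference between them and 1 over both. The scaling set the sign of the set medians. With arrays centred on the median of probe sets with 1 symbol, the non-clustered median was 0.01458 in experiment 1, 0.06975 in experiment 2 and 0.04768 over both. The beta median was then 0.0257 in experiment 2 and 0.01809 over both, with 14 of 22 positive over both. Centred on the median of all probe sets, an alternative added after seeing the data, the beta median was -0.04556 in experiment 2 and -0.03876 over both, with 5 of 22 positive in experiment 2. The non-clustered median was then -0.001517 in experiment 2 and -0.009172 over both. Centring shifts every gene on an array alike: over both experiments the median of all probe sets was 0.0212 and -0.0356 under the 2 centrings against -0.00826 as deposited, and the share of positive differences among unadjusted calls was 74.8% and 12.6% against 38.1% (26.0% after quantile normalization).

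Above the median level fewer beta genes remain, with 4 positive in experiment 1 and 7 in experiment 2. With each array left out, the beta median ran from -0.06336 to 0.007537 in experiment 1 and the non-clustered median from -0.06278 to 0.03962. Over both experiments the non-clustered median ran from 0.0069 to 0.03856. The number of beta genes with positive values in experiment 2 ran from 7, without ethanol replicate 3, to 14. Pcdhb2 in experiment 2 ran from -0.40 to -0.30 and Pcdhb16 in experiment 1 from -0.41 to -0.23, with adjusted p over all alternatives from 0.103 to 0.63 and from 0.215 to 0.951. The replicate block left the beta medians at -0.008435 and -0.005963 in experiments 1 and 2 and changed no call. Same-numbered arrays had correlations of deviations from -0.146 to 0.23. These values cannot show whether such arrays were paired, because deviations within a group cancel out and in experiment 1 mirror each other. The numbers were not taken as pairs in the main fits.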

Other observations

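The probe set that carries 14 symbols of the alpha cluster was outside the rule and is given here as values. In experiment 1 it had 6.77 and 6.74 log2 units with ethanol and 6.85 and 6.87 in the controls, without overlap (-0.11 ± 0.05). In experiment 2 it had 6.82, 6.84 and 6.86 on the ethanol arrays against 6.77, 6.74 and 6.81 on the control arrays, again without overlap but with the other sign (0.07 ± 0.04). In limma over all 35556 probe sets the adjusted p was 0.671 and 0.67 in the experiments, and the difference between them was 0.18 ± 0.07 (adjusted p = 0.684). It cannot be assigned to any 1 alpha gene.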
